A study of Glycine max with 12 samples.

Results

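A group of 19 soybean cDNA clones gave less signal in leaves treated with L-azetidine-2-carboxylic acid (AZC) than in water-treated leaves, while their mean ratios under tunicamycin (TUN) and polyethylene glycol (PEG) stayed close to 0. The members were selected on the authors' log2 ratios of treated over control under all 3 treatments, as the spots with an AZC mean at least 1.5-fold below the water control, every AZC value below 0, a mean under 0.3 in size for TUN and for PEG, and at least 3 values in every treatment. They make up 19 of 5760 spots on the array, of which 5332 had enough values. The platform table pairs 3 of them with a gene symbol and leaves 16 without one, so that nearly all are known here by spot number only. No clone sequence was available to print.

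AZC is an analog of proline that is built into new proteins in its place, which makes the proteins misfold. TUN blocks the attachment of N-linked glycans in the endoplasmic reticulum (ER), so both agents load the ER with unfolded proteins and set off the unfolded protein response, in which folding helpers such as the chaperone BiP are induced. PEG acts from outside the cell by drawing water out of it.

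The plants were 3 weeks old, of the soybean cultivar Dare, and their aerial parts were cut off before treatment. AZC was given at 50 mM for 16 h against water, TUN at 10 μg/ml for 24 h against DMSO, and PEG at 10% (w/v) for 16 h against water. RNA from the first trifoliate leaves was hybridized as 2 biological replicates per treatment, each with the treated RNA once in Cy5 and once in Cy3, giving 12 hybridizations in all. Every hybridization paired treated with control RNA, so that AZC, TUN and PEG were each set against their own controls. The labels do not say if AZC and PEG shared their water plants.

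The treatment labels were checked on the clones of BIP4, a soybean BiP, whose AZC means were 4.995 and 4.375 on the log2 scale. Their TUN means were 4.767 and 4.879 and their PEG means -1.109 and -1.282. These clones set AZC and TUN apart from PEG but cannot tell AZC from TUN. The array was made from developing-seed libraries and probed with leaf RNA. PSAD, a photosystem I subunit, marks green tissue. Its clone was above background in water RNA on all 3 AZC hybridizations in which it had a ratio. The 6 clones of seed storage genes were above background there too, on 4 of 4. On each AZC hybridization 100% of all spots not marked by the scanner software were above background in water RNA. Being above background therefore cannot tell leaf from seed here. The 2 scanner files of PEG replicate 1 went against their labels. Each correlated negatively with the authors' ratios of its own hybridization (r = -0.45 and -0.49 across spots) and positively with those of the dye-swapped partner (r = 0.87 and 0.94), and they were exchanged wherever scanner values are used. For PEG replicate 2 with PEG RNA in Cy5 the spots were quantified with a different method from the other 11 hybridizations, and only 49.3% of its spots were above background in the treated channel.

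The AZC effect on the members was small and narrow in range. Their AZC means ran from -1.14 to -0.60, that is 2.204-fold to 1.511-fold below water, with a median of -0.70 or 1.63-fold. The 16 members without a symbol had a median of -0.72 (1.65-fold). These values chose the members and are a description. The TUN means ran from -0.29 to 0.22 with a median of -0.04, and the PEG means from -0.29 to 0.18 with a median of -0.13. Within the allowed band the means were below 0 in 14 of 19 members for TUN and in 17 of 19 for PEG. The share of all spots below 0 in the authors' ratios was not determined, so nothing is read from these counts. In the scanner values fitted as described below, 10 of 18 TUN estimates and 13 of 15 PEG estimates were below 0. The median estimate over all tested spots was -0.006 for TUN and 0.006 for PEG.

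**Figure D1:**
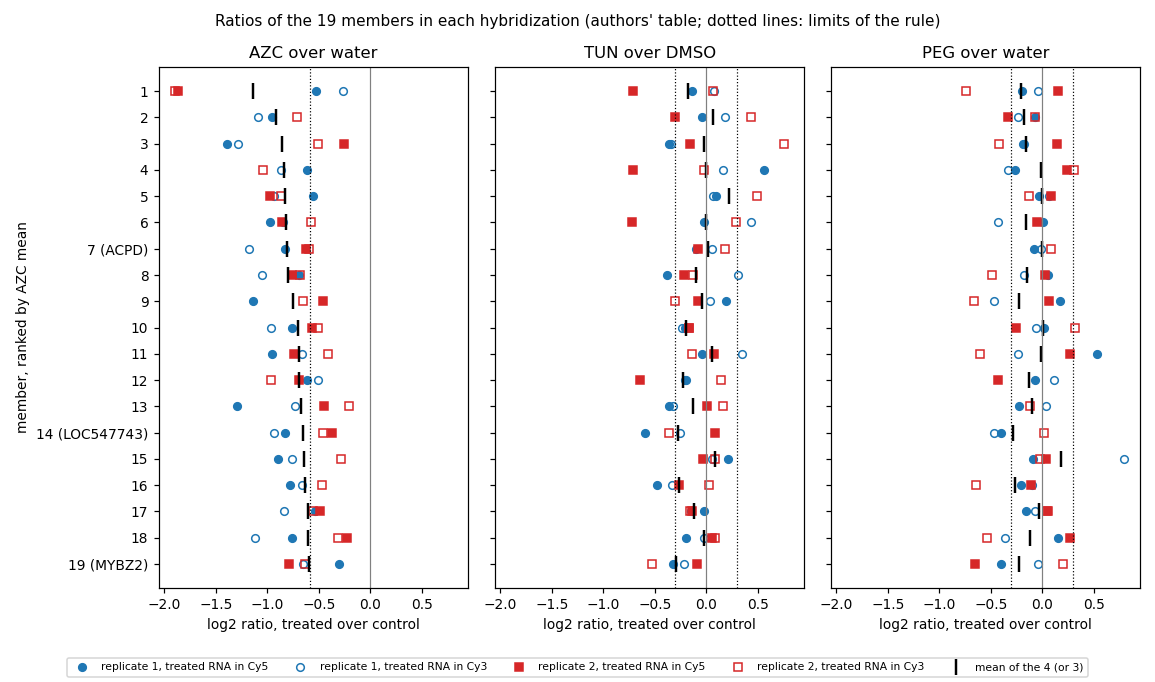
Log2 ratio of treated over control (x axis) of each of the 19 members (y axis, ranked by AZC mean) in every hybridization, in panels for AZC, TUN and PEG. Colour and shape give the biological replicate, filled symbols have the treated RNA in Cy5 and open ones in Cy3, black bars are means and dotted lines the limits of the rule. All 71 AZC values lie below 0, and single TUN and PEG values spread to both sides of it.

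The spot with the lowest AZC mean was spot 840, which has no gene name in the tables used. Its AZC ratios were -0.53 and -0.26 in replicate 1 (treated RNA in Cy5 and in Cy3) and -1.87 and -1.90 in replicate 2. Its mean of -1.14 ± 0.87 (SD, n = 4 hybridizations) therefore joined a replicate mean of -0.40 with one of -1.88, the widest replicate difference among the members at 1.49. Under TUN the same spot gave -0.14 and 0.08 in replicate 1 and -0.72 and 0.06 in replicate 2. Under PEG it gave -0.20 and -0.04 in replicate 1 and 0.15 and -0.74 in replicate 2. The first AZC replicate overlapped the lowest TUN and PEG values, whereas the second lay below all of them.

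Spot 840 was also the brightest member in control RNA. Its background-subtracted signal, before normalization, was 14664 and 20512 in AZC RNA of replicate 1, against 19359 and 15229 in the water RNA of the same hybridizations. In replicate 2 it was 6959 and 9834 in AZC RNA, against 16686 and 18263 in water RNA. The slides of replicate 2 were dimmer as a whole, with a median water signal over all spots of 390 and 506, against 879 and 818 in replicate 1, so these signals are not comparable between replicates. Spot 840 stood at the 98.7th and 97.8th percentiles of water signal in replicate 1 and at 99.95 and 99.64 in replicate 2. Which channel set the lower ratio of replicate 2 cannot be told apart from these values.

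Spot 1279, also without a gene name, had the AZC mean nearest the median of the members. Its AZC ratios were -0.76 and -0.96 in replicate 1 and -0.57 and -0.51 in replicate 2, a mean of -0.70 ± 0.20 (SD, n = 4). Its TUN ratios were -0.21, -0.23, -0.17 and -0.17, and its PEG ratios 0.02, -0.06, -0.25 and 0.32. The AZC values did not overlap those of TUN or PEG, and the TUN values were among the tightest of the group. The background-subtracted signal was 644 and 787 in AZC RNA of replicate 1 against 1345 and 1384 in water RNA, and 264 and 454 in AZC RNA of replicate 2 against 407 and 657 in water RNA. In each of the 4 hybridizations the AZC channel was the dimmer one before normalization, in either dye.

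The member with the eighth lowest AZC mean was singled out after its values were seen, since it met every limit in each replicate taken alone and had all 12 ratios. Its AZC ratios were -0.69, -1.05, -0.76 and -0.69, with replicate 1 given first. Under TUN it gave -0.38, 0.31, -0.22 and -0.13, and under PEG 0.06, -0.18, 0.02 and -0.49. The AZC values lay below all the others, although the TUN and PEG values of single hybridizations reached past 0.3 in size.

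Among the 3 named members, ACPD, a stearoyl-acyl carrier protein desaturase gene of fatty acid synthesis, had AZC ratios of -0.83, -1.17, -0.63 and -0.60. The other clone that the table assigns to ACPD did not share this, with an AZC mean of -0.03. The clones of LOC547743 and MYBZ2, a gene of the MYB transcription factor family, lay nearer the AZC limit, with AZC means of -0.65 and -0.60. Their TUN means of -0.28 and -0.29 and PEG means of -0.285 and -0.22 were also low within the band of 0.3.

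Most spots lowered by AZC were lowered by the other treatments too. By the same AZC limits 180 spots (3.38% of those with enough values) were lower, and 115 of them had means of -0.3 or less under both TUN and PEG, 20 under TUN with PEG within the band, and 15 under PEG with TUN within it. A further 11 had a mean of 0.3 or more under TUN or PEG, also where the other of the 2 lowered them, which leaves the 19 members. The other 161 lowered spots had a median AZC mean of -1.15, a lowest of -5.87, and medians of -0.98 under TUN and -1.02 under PEG, and 81 of them had an AZC mean below that of spot 840. Under the same rule turned to the other treatments, 2 of 153 spots were lowered by TUN only and 37 of 219 by PEG only.

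**Figure D2:**
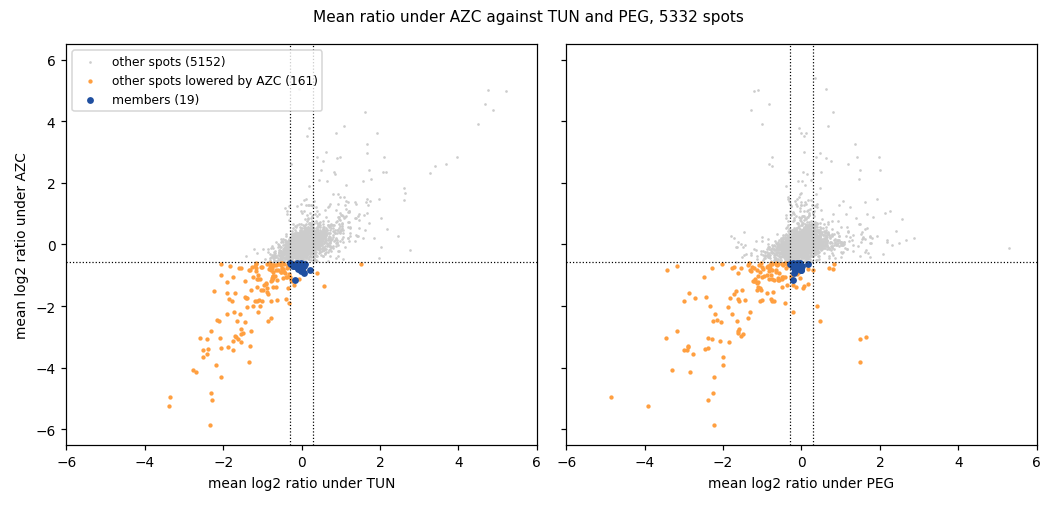
Mean log2 ratio under AZC (y axis) against the mean under TUN (left, x axis) and PEG (right, x axis) for 5332 spots, with the 19 members, the 161 other spots lowered by AZC and all remaining spots in separate colours. Dotted lines are the limits of the rule, and the members sit in the upper part of the lowered range, none below -1.14.

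Spots lay close to the limits on either side. The member closest to the AZC limit had a mean of -0.60 and the nearest spots outside it had -0.58, -0.58 and -0.57. Within 0.1 of that limit lay 7 members inside and 8 spots outside. The member farthest from 0 under TUN had -0.29 and the nearest spot left out by TUN alone -0.32. For PEG the values were -0.29 inside and -0.30 outside. Between 0.3 and 0.4 in size lay 6 further spots for TUN and 4 for PEG.

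The 2 biological AZC replicates differed more for the members than for the array as a whole. The absolute difference between replicate means had a median of 0.31 (0.15 to 1.49) over the members, against 0.13 over all spots with enough values and 0.36 over the other lowered spots. The median standard deviation of the AZC ratios was 0.21 for the members, against 0.16 for all spots and 0.30 for the other lowered spots. Replicate 1 was the lower one in 14 members and replicate 2 in 5. The mean of replicate 1 was past the 1.5-fold limit in 16 members (3.98% of all spots), that of replicate 2 in 9 (3.15% of all spots), and both in 6.

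The dye made less difference under AZC than the replicate. The median ratio over the members was -0.78 with AZC RNA in Cy5 and -0.86 in Cy3 for replicate 1, and -0.63 and -0.57 for replicate 2. Under TUN the sign of the median went with the dye. It was -0.14 and -0.14 with TUN RNA in Cy5, and 0.04 and 0.06 in Cy3, in replicates 1 and 2. Since the dye-swap pair is averaged, such values offset each other in a TUN mean near 0.

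**Figure D3:**
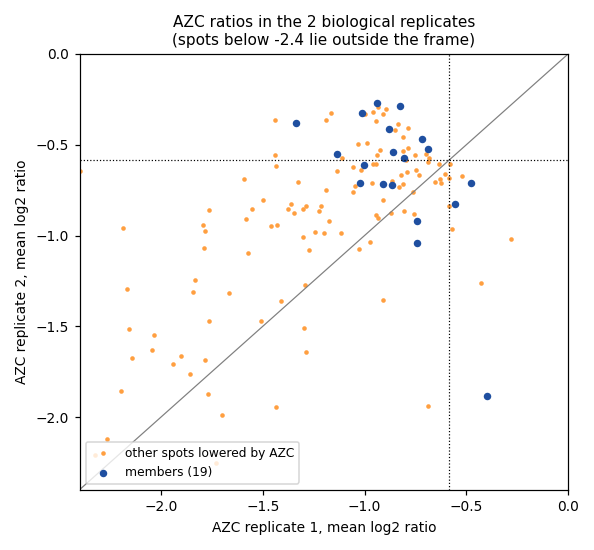
Mean AZC log2 ratio in replicate 1 (x axis) and replicate 2 (y axis) of the 19 members and the other spots lowered by AZC. The diagonal marks equal values and dotted lines the 1.5-fold limit. Of the members, 14 lie above the diagonal, with a lower value in replicate 1, and spot 840 stands apart at the lower right with -0.40 and -1.88.

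A mean close to 0 under TUN or PEG often joined values of opposite sign. TUN values lay on both sides of 0 in 15 members and PEG values in 17. Single ratios were 0.3 or more in size in 24 of 75 TUN values and in 21 of 71 PEG values. Both replicate means were within 0.3 in 11 members for TUN and in 14 for PEG. All AZC ratios were below all TUN ratios in 10 members (5.63% of all spots), below all PEG ratios in 10 (6.38%), and below all ratios of both in 7 (1.24%). The rule used all these values and held the TUN and PEG means near 0, so nothing is read from the counts or the shares. For the counts on mixed signs, single ratios and replicate means, the share over all spots was not determined.

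When each replicate was taken by itself, on the values present, 10 members met all limits in replicate 1, 4 in replicate 2, 4 in both and 9 in neither. To read values that had not been used to choose spots, the same limits were applied over the whole array to 1 replicate of AZC, TUN and PEG, and the other replicate was then examined. Here both dye orientations had to be present in every treatment, which leaves fewer members than the counts above. Replicate 1 chose 20 spots, 9 of them members. Of the 17 with an AZC mean in replicate 2, 16 were below 0, against 46.7% of all 5107 spots with a value. The AZC mean in replicate 2 was past the 1.5-fold limit in 8 of 17 (47.1%, against 3.15% of all spots), with a median of -0.58 and a range from -1.94 to 0.10. Of the 12 with every value present, TUN stayed within 0.3 in 10, PEG in 9, and all limits were met again by 1.

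In the other direction, replicate 2 chose 4 spots, 1 of them a member. All 4 were below 0 in replicate 1 and 3 were past the limit (against 3.98% of all 5598 spots), and 1 of the 4 met every limit again. The shares beside these counts are those of the whole array. Spots lowered by AZC along with TUN or PEG were not read in this way. The counts therefore do not bear on whether the lowering was limited to AZC. Whether a low AZC ratio recurs more often than the whole pattern was not tested.

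The scanner files gave larger AZC changes for the same spots. After background correction by normexp and loess normalization, all 19 members were past the 1.5-fold limit and all were lower than in the authors' table, with a median of -1.05 (-1.45 to -0.73). TUN stayed within 0.3 in 16 members and PEG in 13, and 11 met the whole rule in these ratios.

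In the limma fit across all spots, 14 members had both dye orientations in both AZC replicates and could be tested, and all 14 were called lower (adjusted p 4.0e-04 to 0.041, Benjamini-Hochberg), where 5.12% of all tested spots were called lower. Estimates ran from -1.35 to -0.73 with standard errors of 0.12 to 0.26. The rule chose the members on this contrast, so the count is a description. The count is 5 of 15 without AZC replicate 1, and 7 of 14 when the PEG hybridization with the different quantification is left out. The cause of that drop was not tested. For spot 1279 the AZC estimate was -0.94 (SE 0.14, adjusted p = 0.0025) and for spot 840 -1.16 (SE 0.26, adjusted p = 0.024), both from limma.

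The direct differences between treatments were called for fewer members. The rule fixed a low AZC mean and TUN and PEG means near 0 on the same hybridizations, so the sign of these differences, their p-values and their counts beside the share of all spots are a description and support nothing. AZC was lower than TUN in 4 of 13 tested members by limma (1.49% of all spots), namely those of rank 6, 7 (ACPD), 8 and 11 by AZC mean. All 13 estimates were below 0 (-1.44 to -0.44) with an unadjusted p under 0.05. Of all spots, 300 of 4372 were lower at that unadjusted p. The doses and times of AZC and TUN also differ. AZC was lower than PEG in 5 of 10 tested members (2.97% of all spots), those of rank 5, 8, 10, 11 and 17. All 10 estimates were below 0 (-1.05 to -0.39), 8 of them with an unadjusted p under 0.05 by limma. Of all spots, 296 of 3976 were lower at that unadjusted p. Both differences were called in 2 of the 9 members tested for both, those of rank 8 and 11.

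These counts rest on few libraries. The AZC minus TUN count is 0 without AZC replicate 2 or TUN replicate 1, and 1 without AZC replicate 1, PEG replicate 1 or PEG replicate 2. The AZC minus PEG count is 0 without PEG replicate 2, 1 without AZC replicate 2 or PEG replicate 1, and 2 without AZC replicate 1.

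For spot 1279 the difference from PEG was -1.05 (SE 0.20, adjusted p = 0.015) and that from TUN -0.77 (SE 0.20, adjusted p = 0.13). For spot 840 neither difference was called, with -0.98 (SE 0.37, adjusted p = 0.37) against TUN and -0.89 (SE 0.37, adjusted p = 0.27) against PEG. The member of rank 8 had -0.9996 (SE 0.19, adjusted p = 0.035) against TUN and -0.87 (SE 0.19, adjusted p = 0.030) against PEG, all by limma.

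No member was called under TUN or PEG by limma. Under TUN 0 of 18 tested members were called in either direction, where 7.22% of all spots were called. At an unadjusted p under 0.05 by limma it was 1 member, where 827 of 4905 spots passed. Under PEG 0 of 15 were called, where 11.7% of all spots were called. At an unadjusted p under 0.05 by limma it was 2 members, where 1033 of 4345 spots passed. With the authors' ratios in place of the scanner values the limma counts were 0 as well. The members were chosen for means near 0 in these treatments, and the counts do not show that their RNA was unchanged.

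**Figure D4:**
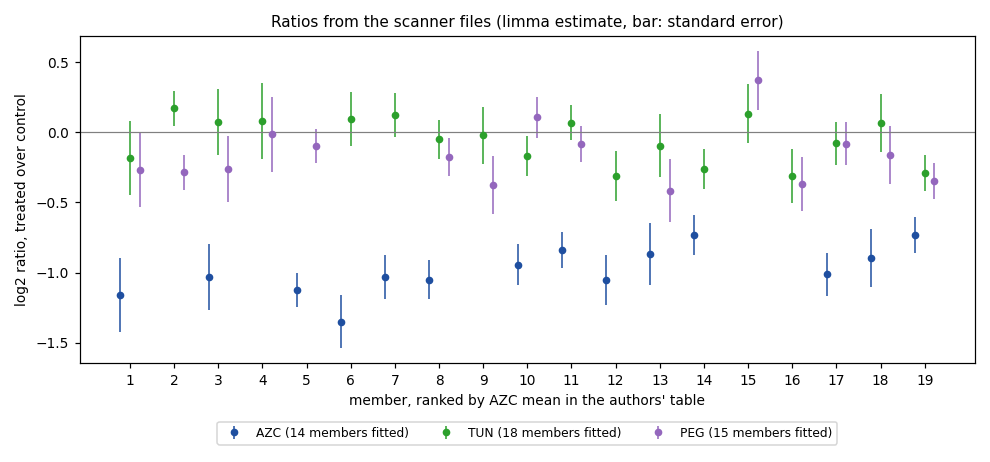
limma estimates of the log2 ratio from the scanner files (y axis) with standard errors (bars) for each member by rank (x axis), for AZC, TUN and PEG. The 14 AZC estimates lie between -1.35 and -0.73, below the TUN and PEG estimates of the same member, and members with a missing dye orientation have no point for that treatment.

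The members gave middling signal in control leaves. Signals on cDNA spots depend on the clone as well as on the RNA, so each is given as its percentile of brightness among all spots of the hybridization and says nothing of abundance between genes. Spots marked by the scanner software are included in these percentiles. In water RNA of the AZC hybridizations the members' mean percentile ran from 21.2 to 99.0 with a median of 59.5, and 13 of 19 were above the middle of the array. Beside spot 840 the highest was 73.3. In DMSO RNA the median was 53.3 (14.6 to 92.9), and in water RNA of the PEG hybridizations 52.8 (13.8 to 91.5).

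The other lowered spots gave higher percentiles. Their median percentile was 66.1 in water RNA of the AZC hybridizations, 67.6 in DMSO RNA and 73.0 in water RNA of the PEG hybridizations. Above the 75th percentile lay 1, 1 and 2 of the 19 members in these controls, against 47, 51 and 74 of the 161 other lowered spots. The control signal is also the denominator of the ratio, so brightness and ratio are not independent measures.

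**Figure D5:**
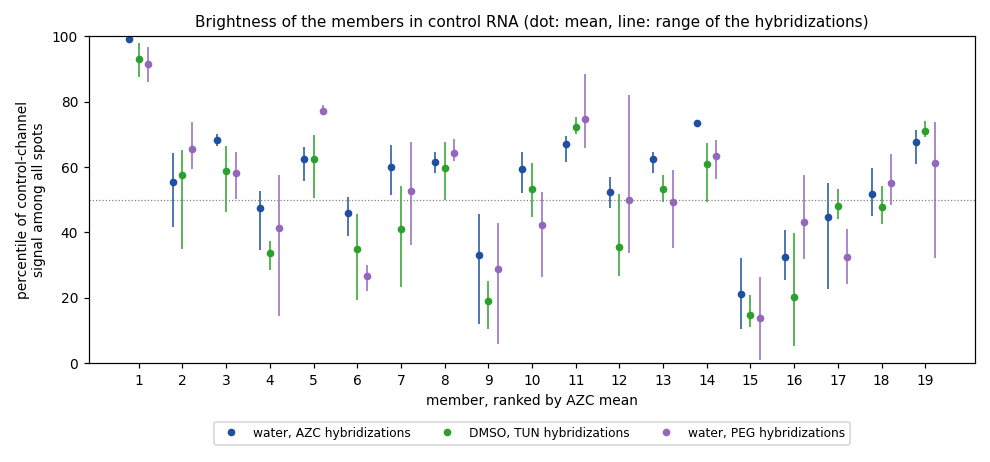
Percentile of control-channel signal among all spots of a hybridization (y axis) for each member by rank (x axis), in water RNA of the AZC hybridizations, DMSO RNA of the TUN hybridizations and water RNA of the PEG hybridizations. Dots are means and lines the range over hybridizations. Spot 840, of rank 1, is near the top in all 3 controls, and the other members spread over the middle of the scale.

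Every member that the scanner software had not marked was above the local background in both channels on 11 of 12 hybridizations. So were nearly all unmarked spots of the array, at 98.54% to 100% per channel. On the remaining one, PEG replicate 2 with treated RNA in Cy5, 7 of 17 members were above background in the treated channel and 14 in the control channel. Of all unmarked spots there, 49.28% and 91.05% were. No member had saturated pixels (0%). With marked members included, the water signal of the members had a median of 1231 and 1368 in AZC replicate 1. In AZC replicate 2, where the whole slides were dimmer too, it was 417 and 612. In AZC replicate 2 with AZC RNA in Cy5, 4 members were marked and have no ratio, and all 4 rest on 3 AZC values.

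The array has 4 blocks of 1440 spots, and 10 of 19 members (52.6%) lay in the first, against 47 of the 180 spots lowered by AZC (26.1%). The other blocks held 3, 4 and 2 members. In the first block 6 members lay in rows 32 to 36. This span starts and ends at the rows of those members, so their count in it is a description. The other 174 spots with a value there had a median AZC ratio of -0.10, against -0.03 for the whole block. The spots next to a member had a median AZC ratio between -0.38 and 0.21, and 7 of 146 such neighbours had a mean past the 1.5-fold limit. With all AZC values below 0 also required, 3.38% of all spots with enough values were past it. The members of rank 4 and 5 were neighbours of each other, and each is counted among those 7. The part of slide position in the members' ratios was not tested. Because whole leaves were extracted, a loss of RNA from each cell and a smaller share of the cells that hold it cannot be told apart for any of these clones.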

How the data were processed

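The deposited scanner files hold, per the file headers, the mean foreground and local background intensity of each spot in Cy3 and Cy5, the percent of saturated pixels, the spot positions and the scanner's own marks. The authors subtracted background, normalized by LOWESS and deposited log2 ratios, treated against control, whose scale and direction were found by setting each column against the scanner values. Other values used from the deposited files were spot numbers and positions. The members and lists were chosen with earlier results of these data known.

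The rule was applied to the authors' ratios. Scanner values were corrected by normexp (offset 50), normalized by global loess and oriented as treated over control from the labelled dyes. Spots marked 1 or 4, whose meaning is not given in the sources used here, were left out of these ratios and of the counts above background. They were kept in the control signals and their percentiles. A dye-swap pair gave 1 value per biological replicate. Spots entered when at least 3 of 4 hybridizations of an RNA group were 2 background standard deviations above local background. Their 6 values were modelled in limma 3.58.1 (R 4.3.3) by treatment, with an intensity trend and Benjamini-Hochberg adjustment over all spots (threshold 0.05). It was tested on simulated data. With 2 biological replicates per treatment, p-values rest on variances shared across spots and treatments. No count of reads exists for arrays, and their number limits the precision.

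At most 2 spot numbers are printed, those of the lowest AZC mean and of the AZC mean nearest the members' median among members with all 12 ratios. Other members are given by rank. Alternatives were other background corrections and normalizations, no trend, no filter, the authors' ratios, all 12 hybridizations with a dye term and a random block, a replicate block, each replicate left out, other limits, and the PEG files as listed. Added after seeing the data were the methods' t-test and the rule without the PEG hybridization that had a different quantification.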

Additional observations from a re-analysis of the deposited data

Results flagged for a closer look

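Among 39 sets of 4 ratios examined over the 16 members without a symbol, 2 had a single hybridization far from the other 3, and chance gives about 1 in 20. The member of rank 15 had a PEG ratio of 0.79 in replicate 1 with PEG RNA in Cy3, where its other PEG ratios lay between -0.09 and 0.04. The member of rank 17 had a TUN ratio of -0.0233 in replicate 1 with TUN RNA in Cy5, where the others lay between -0.16 and -0.13.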

How the results depend on the processing

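The count of members called lower under AZC (14) was 9 with no intensity trend, 7 without the PEG hybridization that had a different quantification, 2 with the PEG replicate 1 files as listed, and 5 to 14 when a biological replicate was left out. The methods' t-test on the authors' ratios gave 13 of 19 at an unadjusted p under 0.05 and 0 after adjustment, where it gave 520 of 5648 spots (9.21%) and 70. The AZC minus TUN count (4) was 0 with plain subtraction, no background correction, no trend, the PEG files as listed or without that PEG hybridization, 1 with the authors' ratios, 2 with print-tip loess, 8 with 12 hybridizations and a random block, and 0 to 4 without a replicate. The AZC minus PEG count (5) was 2 with plain subtraction or no correction, 3 with no trend, 0 with the PEG files as listed or without that PEG hybridization, and 0 to 5 without a replicate. Calls under TUN stayed at 0 in all 18 alternatives, and those under PEG at 0 in 17 and at 1 with median centring. The fit with a random block estimated a correlation of -0.158 within dye-swap pairs, so it did not discount the hybridizations of a pair as repeats. The cause of these differences was not tested.

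The rule found 8 spots with all 4 values required, 12 with a limit of 0.2 on TUN and PEG, 29 with 0.4, 1 with an AZC limit of -1, 37 in the scanner ratios (11 of them members), 13 without AZC replicate 1 (7 of them members) and 24 without AZC replicate 2 (15 of them members). The median AZC ratio was -1.05 in the scanner ratios, -1.02 with print-tip loess and -1.25 with median centring. The share of chosen spots past the AZC limit in a held-out replicate ranged from 29.8% (14 of 47, scanner ratios) to 75% (3 of 4, authors' ratios). All limits were met again by fewer spots. These were 1 of 12 and 1 of 4 in the authors' ratios, and 6 of 28 and 6 of 25 in the scanner ratios. Replicate numbers are not stated to mark a shared day. Replicate differences correlated across spots at r = 0.14 (AZC and TUN), -0.07 (AZC and PEG) and -0.06 (TUN and PEG). A fit with a replicate block gave 14, 4 and 4 members for AZC, AZC minus TUN and AZC minus PEG, and 0 for TUN and PEG.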
